A study of Sus scrofa with 22 samples.

Results

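Keratins are the intermediate filament proteins of epithelial cells, and their genes were followed here through pig tongue epithelium and the organoids grown from it. Every gene whose symbol was KRT followed by a number, with or without a final letter, was taken as a member, whatever its level. This gave 36 keratin genes of 27376 named genes in 16 libraries, and the same 36 of 29850 in the 6 libraries of the CQ experiment. No measured value entered the choice. The study sequenced messenger RNA from 22 bulk libraries of pig (Sus scrofa) in 6 groups.

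The papilla group held foliate papillae (lateral tongue folds in which taste buds sit) from 5 pigs, extracted whole. The passage 1 organoid group held 5 cultures from the same pigs in LPM, the growth medium. In the FGF10 experiment 3 organoid libraries in LPM stood beside 3 in LPM from which FGF10 was left out. In the CQ experiment 3 libraries in LPM alone stood beside 3 that were in LPM from day 0 to day 10 and then in CQ to day 16 or 17. Per the labels' protocols for the passage 1 organoids and the FGF10 experiment, LPM supplied R-spondin 2 (500 ng/ml), SHH, FGF10, Wnt3a and noggin (100 ng/ml for each), EGF (50 ng/ml), FGF2 (10 ng/ml) and insulin (10 nM). Its small molecules were nicotinamide (10 mM), SB202190 and Y-27632 (10 µM for both), CHIR99021 (2.5 µM), forskolin (1 µM), A-83-01 (0.5 µM), prostaglandin E2 (20 nM) and N-acetyl-cysteine. What CQ contains, the amounts in the LPM of the CQ experiment, the culture day of the LPM libraries beside CQ, the age of the pigs and the number of lines behind the FGF10 and CQ experiments are not given in the sources used here. Culture age therefore cannot be told apart from the change to CQ. The labels give the cells as stem and mature taste cells.

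Keratin filaments are built from pairs of 1 type I and 1 type II chain, so a cell that makes a keratin of one type needs a partner of the other. Simple epithelia use KRT8 with KRT18, and taste bud cells are among those that carry this pair. Basal cells of stratified epithelia use KRT5 with KRT14. When cells of the oral lining leave the basal layer they change to KRT4 with KRT13, whereas keratinizing surfaces such as skin use KRT1 with KRT10. KRT6 and its partners KRT16 and KRT17 come on in wounded or stressed epithelium and are also present in parts of the oral lining. Desmosomes and plakins anchor the filaments to cell junctions.

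The 36 genes were grouped by these textbook roles. There were 5 simple keratins (KRT7, KRT8, KRT18, KRT19 and KRT20), 2 basal (KRT5 and KRT15), 10 suprabasal (KRT1, KRT2, KRT3, KRT4, KRT10, KRT12, KRT24, KRT77, KRT78 and KRT79), 1 stress keratin (KRT6A), 15 of hair and follicle, and 3 outside these classes (KRT23, KRT80 and KRT222). Chromosome 5 carried 16 of them, the type II genes together with KRT18, and chromosome 12 carried the other 20, all type I. KRT4 lay on chromosome 5 from 18091742 to 18099086, KRT8 from 18172423 to 18180277 and KRT18 from 18217686 to 18221432, in Sscrofa11.1 positions as the files give them. KRT19 lay on chromosome 12 from 21115453 to 21119115, beside KRT15 from 21124605 to 21130247. All 36 had the same gene model in both annotation versions. KRT7 is listed as a long noncoding RNA in the RefSeq gene table, although its symbol is that of a keratin. No entry carried the symbol KRT13, KRT14, KRT16 or KRT17, so the usual partners of KRT4, KRT5 and KRT6A were not measured under their own names. In the type I stretch of chromosome 12, entries with only a number for a name took 91.7 to 96.3% of the counts of that stretch in papillae, 38.1 to 64.0% in passage 1 organoids and 52.0 to 71.0% in the other groups. In the type II stretch of chromosome 5 they took at most 1.2%. The type I side is therefore covered only in part.

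Libraries held 14.67 to 27.77 M counts. Levels are given as CPM, counts scaled to library size with TMM factors within a comparison, and a gene was called at an edgeR adjusted p under 0.05. Library pairs within a group differed beyond counting noise in all 6 groups, so none was merged. The CQ libraries were the shallowest, at 14.67 to 16.0 M, and the least alike at low counts: among genes with a mean of 10 to 30 counts the median ratio of variance to mean was 12.19 there and 1.01 to 4.62 in the other groups. The labels call the FGF10 libraries biological replicates and number the CQ libraries, and nothing says whether these came from separate pigs, so their p-values measure the spread between these libraries only. In bulk samples fewer cells of a type and less RNA per cell cannot be told apart. Strand was ignored in counting and read pairs with several matching places were dropped, so levels of keratins with near-identical copies are uncertain.

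Papillae and the organoid groups differed in which class of keratin prevailed. Of the counts per kilobase over the 36 genes, suprabasal keratins took 64.4 ± 7.81% in papillae (SD, n = 5) and 5.46 ± 2.45% in passage 1 organoids (n = 5). Simple keratins took 2.90 ± 0.943% in papillae and 68.0 ± 6.11% in these organoids. No papilla library overlapped an organoid library in either share. Basal keratins took 24.6 ± 5.32% in papillae and 17.7 ± 5.58% in passage 1 organoids, with overlapping libraries. Suprabasal shares were 76.7% in pig 1, 60.1% in pig 2, 58.5% in pig 3, 59.1% in pig 4 and 67.7% in pig 5, so pig 1 was the highest. In organoids of the same pigs they were 2.24, 8.77, 4.24, 6.57 and 5.48%, and there pig 1 was the lowest.

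In the media experiments simple keratins again held the largest share, with 55.1 ± 0.528% in LPM and 56.8 ± 0.442% without FGF10 (n = 3 each), and 65.0 ± 0.719% in LPM and 58.2 ± 0.211% in CQ (n = 3 each). The suprabasal share was 2.64 ± 0.201% in LPM, 1.67 ± 0.204% without FGF10, 1.21 ± 0.0316% in LPM of the CQ experiment and 0.294 ± 0.0206% in CQ. In the FGF10 experiment this share was mostly KRT4, at 182 CPM per kb in LPM and 105 without FGF10. KRT10 stood at 6.98 and 6.64 CPM per kb there, and KRT78 at 1.16 and 1.35. The stress share, which is KRT6A alone, was 18.7 ± 0.614% in CQ and 7.504 ± 0.303% in the LPM libraries beside it. Together the 36 genes made up 4.08 ± 0.903% of all counts in papillae, 1.17 ± 0.324% in passage 1 organoids, 1.55 ± 0.0245% and 1.48 ± 0.0507% in the FGF10 experiment with and without the factor, 0.705 ± 0.0643% in LPM of the CQ experiment and 1.07 ± 0.0397% in CQ. With 4 abundant entries of the type I stretch that have only a number for a name, these totals were 8.32 ± 1.75, 1.52 ± 0.313, 2.07 ± 0.0357, 1.96 ± 0.0642, 1.01 ± 0.116 and 1.53 ± 0.0501% in the same order. These 4 entries were picked for their abundance after the values were seen, and only their position places them with the keratins. These shares carry no test.

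**Figure D1:**
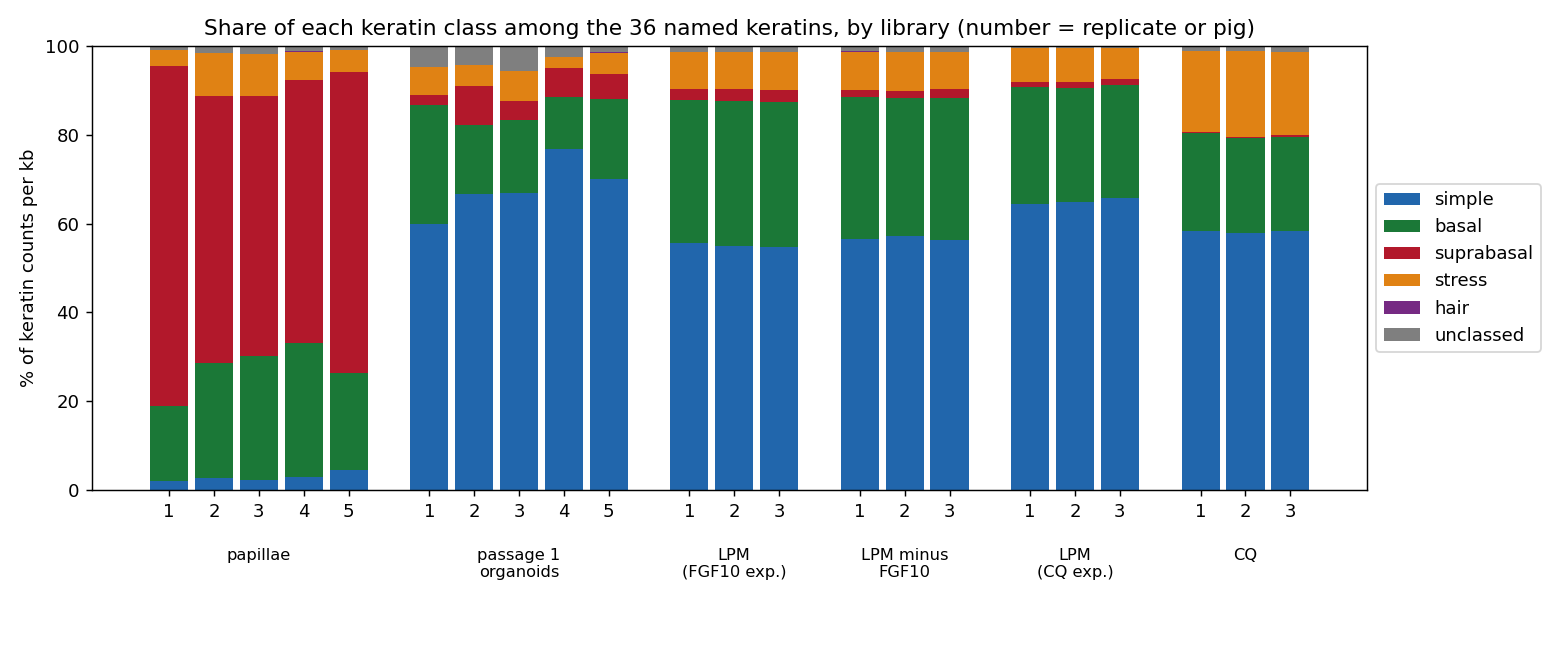
Stacked bars give the percentage of keratin counts per kilobase taken by each class (y axis) in each of the 22 libraries (x axis, numbered by pig or replicate). Suprabasal keratins fill 58.5 to 76.7% of each papilla bar, simple keratins fill 54.6 to 76.7% of each organoid bar, and the stress share reaches 18.1 to 19.3% in CQ.

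Per kilobase, on a scale set over the genes shared by all 22 libraries, the order of levels in papillae began with KRT4 at 11269 ± 4299 CPM per kb, then KRT5 at 3478 ± 559, KRT6A at 1235 ± 448, KRT15 at 1029 ± 195 and KRT78 at 682 ± 543 (SD, n = 5). KRT4 was above KRT5 in each of these libraries, whereas KRT6A and KRT15 overlapped. In passage 1 organoids KRT19 led at 1593 ± 606 CPM per kb, before KRT8 at 1282 ± 485, with wide overlap, then KRT5 at 740.5 ± 167 and KRT7 at 556 ± 200.1. In LPM of the FGF10 experiment KRT19 stood at 1923 ± 63.2 and KRT5 at 1822 ± 32.9 CPM per kb, with overlapping ranges, and KRT8 followed at 1010.3 ± 13.4. The order without FGF10 was the same for the first 6 genes. In CQ the order began with KRT8 at 1265 ± 38.2 and KRT19 at 1198 ± 104 CPM per kb, which overlapped, then KRT5 at 968 ± 68.2 and KRT6A at 871 ± 24.2 (n = 3).

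**Figure D2:**
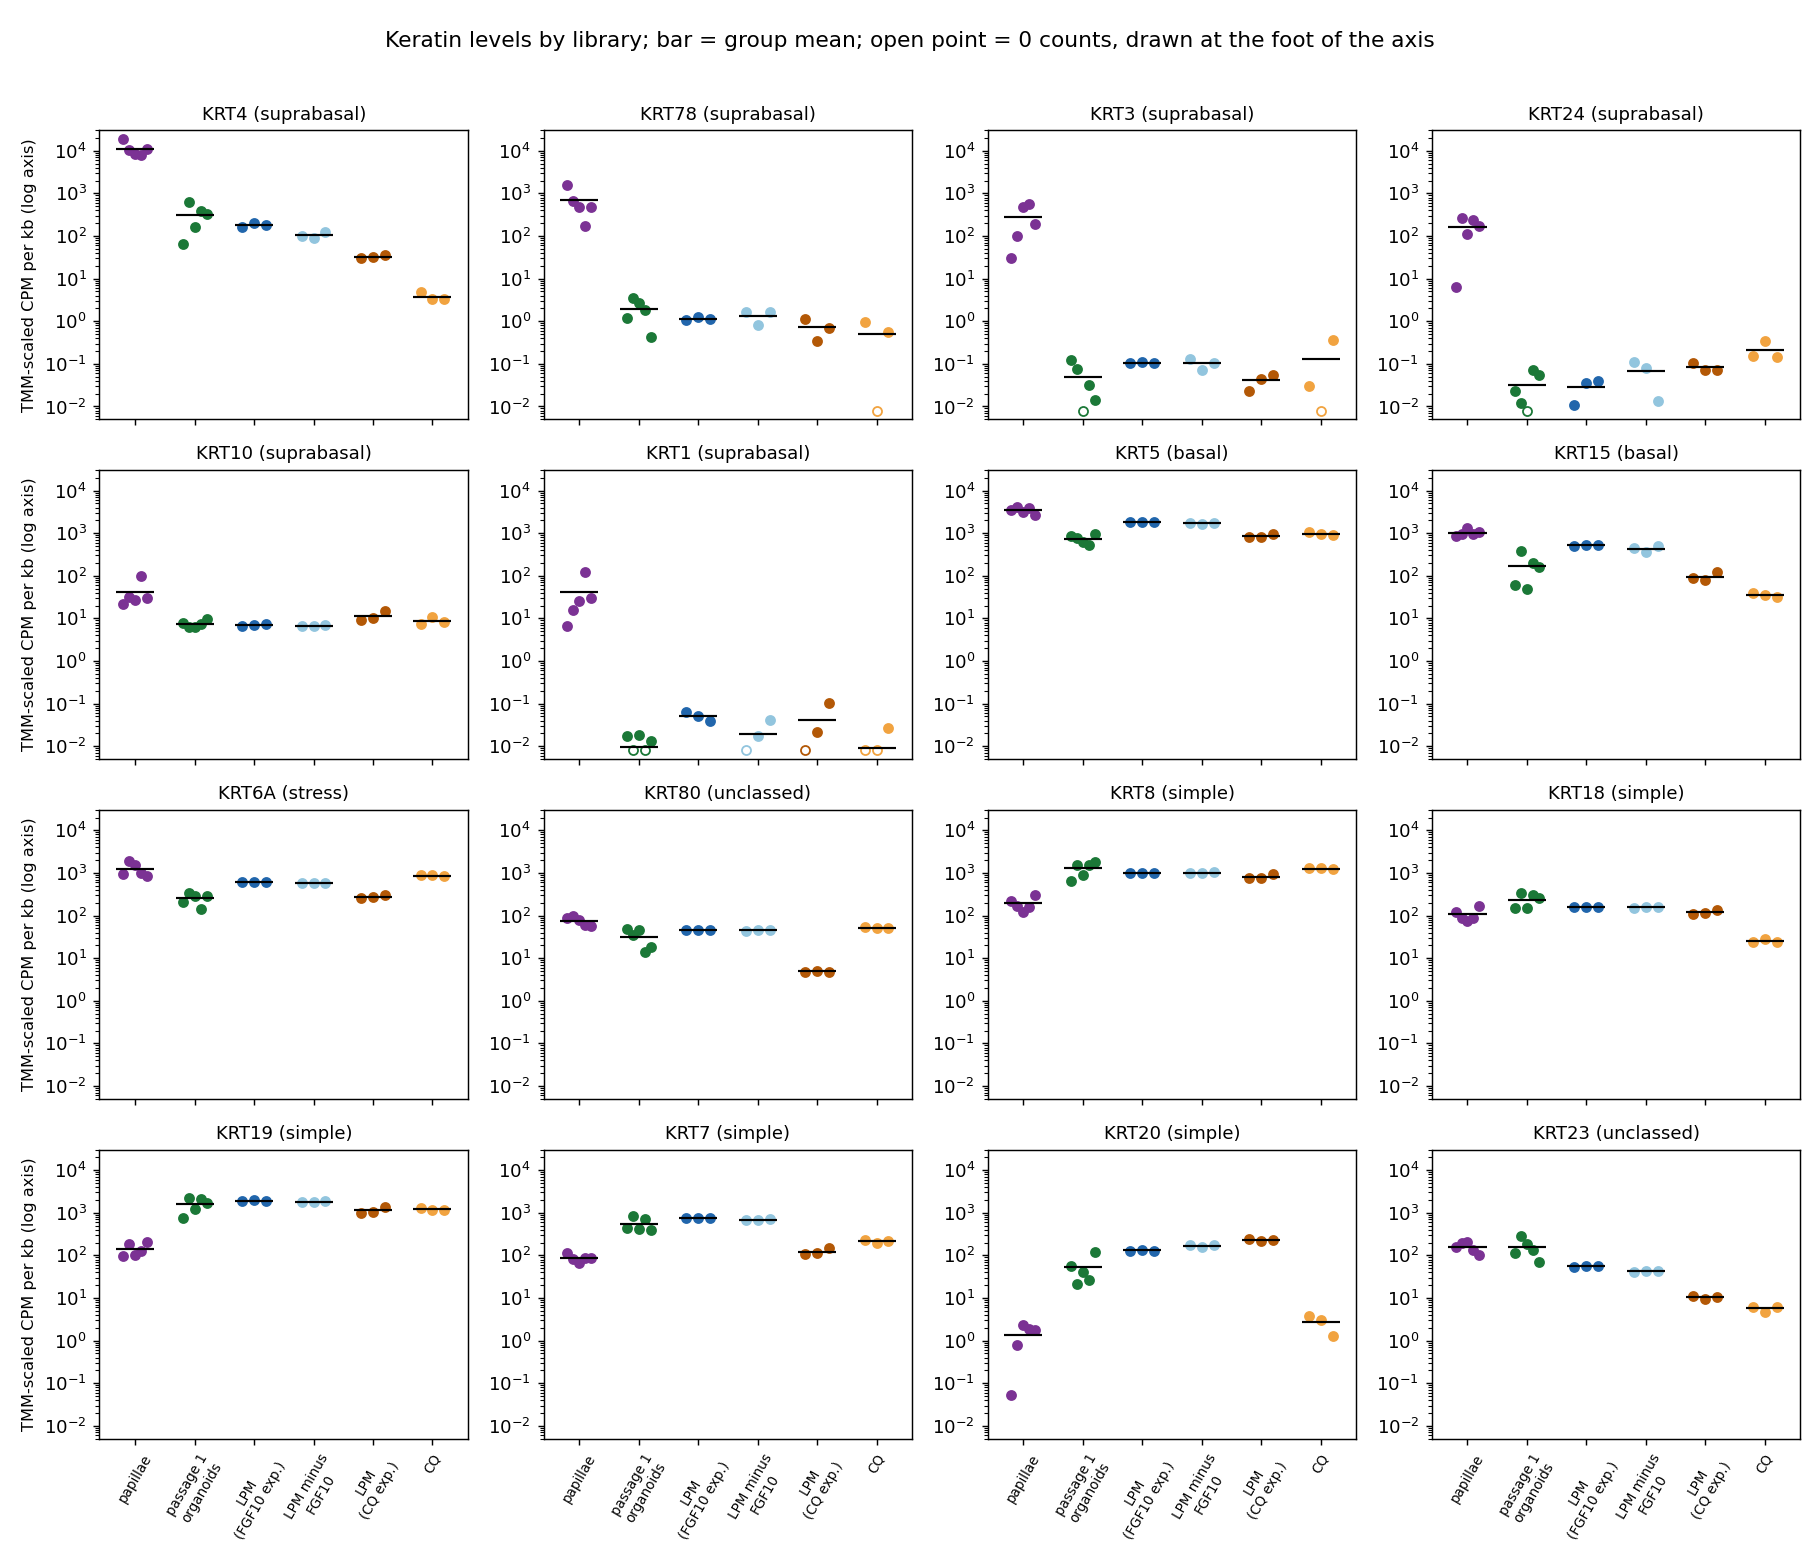
Points give the level of 16 keratins in each library as TMM-scaled CPM per kilobase (log y axis) for the 6 groups (x axis), bars give group means, and open points mark libraries with 0 counts. KRT78, KRT3, KRT24 and KRT1 are high in papillae alone, KRT4 is highest in papillae and next highest in passage 1 organoids by mean, KRT20 is low in papillae and in CQ, and KRT80 is lowest in LPM of the CQ experiment.

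Papillae were compared with passage 1 organoids of the same 5 pigs to show which keratins of the tissue were kept in culture. The fit did not pair libraries by pig. With pig as a block the edgeR adjusted p of KRT5 was 0.000286 in place of 8.2e-06, and that of KRT80 was 0.00124 in place of 0.0058. Of 24 keratins that passed the low-count filter, 23 were called, 5 higher and 18 lower in organoids, against 67.5% of the 16311 genes tested (32.4% higher, 35.1% lower). The groups did not overlap for 19 of the 24, against 54.1% of all genes tested. Log2 changes are organoids over papillae, with a median of -0.01 over all genes tested. Several members passed the filter only through the group in which they were high, so these counts do not stand for the family. Scaling to 12 general epithelial genes in place of TMM moved the median of all genes to -1.34, and scaling to library size alone moved it to 0.28.

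Among the suprabasal keratins KRT4, KRT78 and KRT10, which had counts in every organoid library, fell without overlap. KRT3, KRT24, KRT79, KRT1 and KRT77 had 14, 16, 24, 3 and 2 counts over the 5 organoid libraries and passed the filter through the papillae, so being tested and being lower were bound together for them and their calls are no support for the class. KRT4, the type II keratin of the non-keratinized oral lining, had 41319.7, 23451, 18502, 18203 and 24207 CPM in papillae of pigs 1 to 5 and 145, 1345, 369, 816 and 709.8 CPM in their organoids. The lowest papilla was thus more than 10 times the highest organoid culture (log2 change -5.21, SE 0.61, edgeR adjusted p = 1.84e-05). KRT78, another type II keratin, had 3595, 1517, 1076, 396 and 1112 CPM in papillae and 2.60, 7.37, 5.89, 3.85 and 0.952 CPM in organoids (log2 change -8.55, SE 0.80, edgeR adjusted p = 3.88e-06). Pig 1 had the highest papilla level of both genes.

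KRT3, known from the cornea, had 71.0, 234, 1128, 1328 and 445 CPM in papillae and 0 to 0.285 CPM in organoids (log2 change -12.47, SE 1.11, edgeR adjusted p = 2.66e-06). KRT24, a type I keratin, had 23.02, 972, 408, 879.6 and 634 CPM in papillae and 0 to 0.238 CPM in organoids (log2 change -12.19, SE 1.14, edgeR adjusted p = 3.86e-06). Both varied among pigs by over 10-fold and were lowest in the papilla of pig 1, where KRT4 and KRT78 were highest.

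Both members of the epidermal pair fell. KRT10, the type I partner, had 46.3, 69.2, 59.3, 213 and 65.1 CPM in papillae and 16.6, 13.3, 13.97, 15.1 and 21.1 CPM in organoids (log2 change -2.50, SE 0.40, edgeR adjusted p = 0.000185). KRT1, the type II partner, had 16.4, 37.6, 64.3, 311 and 74.2 CPM in papillae and 3 counts over the 5 organoid libraries, against 8283 over the papillae. The ratio of these summed, scaled counts was 4197 (95% exact interval 1436 to 20355, counting error only). The papilla of pig 4 was the highest for both. KRT77 had 213 counts over the papillae and 2 over the organoids, a ratio of 162 (44.3 to 1345). KRT79, known from the upper hair follicle, fell from 1.31 ± 0.422 to 0.174 ± 0.0981 CPM (log2 change -2.83, SE 0.44, edgeR adjusted p = 0.000169). KRT2 and KRT12 did not pass the filter, with means of 0.430 and 0.327 CPM in papillae.

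Basal and stress keratins fell too, by less than KRT4 and KRT78 and about as much as KRT10. KRT5, the keratin of basal keratinocytes, had 8391, 9592, 7439, 9056 and 6389 CPM in papillae and 1954, 1721, 1463, 1148 and 2172 CPM in organoids (log2 change -2.27, SE 0.24, edgeR adjusted p = 8.2e-06). KRT15, a type I keratin of basal and progenitor cells, had 1571, 1745, 2517, 1785 and 2077 CPM in papillae and 110.3, 662, 93.9, 352 and 303 CPM in organoids (log2 change -2.67, SE 0.49, edgeR adjusted p = 0.000522), where pig 2 was highest and pigs 1 and 3 lowest. KRT6A had 3733, 7557, 6239, 4162 and 3442 CPM in papillae and 846, 1329, 1149, 549.6 and 1186 CPM in organoids (log2 change -2.31, SE 0.32, edgeR adjusted p = 6.06e-05). None of these 3 genes overlapped between the groups, and each was lower in the organoids of all 5 pigs.

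All 5 simple keratins were called higher in organoids. KRT20, with 274 counts over the papillae and 16650 over the organoids, was lowest in the papilla of pig 1 at 0.123 CPM. It passed the filter through the organoids, so being tested and being higher were bound together. Its call is no support for the class. KRT19, which pairs with several type II keratins and marks glandular and basal cells, had 157, 291, 166, 206 and 330.3 CPM in papillae and 1184, 3405, 1989.8, 3114 and 2676 CPM in organoids (log2 change 3.43, SE 0.34, edgeR adjusted p = 5.93e-06). KRT8, the main type II keratin of simple epithelia, had 372, 292, 213, 280.1 and 544 CPM in papillae and 1089.5, 2467, 1565, 2572 and 3082 CPM in organoids (log2 change 2.66, SE 0.34, edgeR adjusted p = 3.62e-05). KRT7, a type II keratin of ducts and glands, had 234, 169, 137, 183 and 175 CPM in papillae and 855, 1612, 861, 1339 and 790.3 CPM in organoids (log2 change 2.60, SE 0.24, edgeR adjusted p = 3.9e-06). KRT20, a type I keratin of gut lining and Merkel cells, had 0.123, 1.80, 5.42, 4.26 and 4.15 CPM in papillae and 127, 46.4, 91.9, 58.0 and 282 CPM in organoids (log2 change 5.26, SE 0.75, edgeR adjusted p = 7.99e-05). These 4 genes did not overlap between the groups.

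KRT18, the type I partner of KRT8, rose least. It had 178, 124, 109, 129.7 and 252 CPM in papillae and 219, 456, 223, 411 and 366 CPM in organoids (log2 change 1.08, SE 0.28, edgeR adjusted p = 0.00528). The groups overlapped at the papilla of pig 5, although organoids were higher in all 5 pigs. With scaling to the 12 epithelial genes its log2 change was -0.18 (adjusted p = 0.565), so its direction rests on the scaling. The other 4 simple keratins stayed higher under that scaling, KRT8 at a log2 change of 1.43 and KRT7 at 1.28.

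Hair and follicle keratins were low throughout. Of 15, only 5 passed the filter. KRT74, KRT36 and KRT27 had 245, 173 and 202 counts over the papillae and 10, 11 and 52 over the organoids, so they passed through the papillae and their calls are no support for the class. Of the untested, KRT40 had 0.291 CPM in papillae and 0.373 CPM in organoids and KRT39 0.0563 and 0.0683 CPM, the only hair keratins with the higher mean in organoids. The most abundant in papillae per kilobase was KRT32, with 4.51, 9.31, 4.71, 4.89 and 2.34 CPM there and 0.163, 0.573, 2.59, 1.36 and 2.23 CPM in organoids (log2 change -1.89, SE 0.61, edgeR adjusted p = 0.016). KRT32 too passed the filter through the papillae. KRT26 was lower as well (log2 change -1.40, SE 0.54, edgeR adjusted p = 0.037), and this call was lost in 8 of 16 alternatives. Among these were the fits without the papilla of pig 2 (adjusted p = 0.164), the papilla of pig 5 (0.0653) or the organoids of pig 2 (0.061), pig 3 (0.0799) or pig 4 (0.0764). KRT34, which did not pass the filter, had 14.1, 1.80, 0.405, 0.762 and 7.77 CPM in papillae, so pigs 1 and 5 held most of its 400 counts, and it had 3 counts over the organoids, a ratio of 203 (68.9 to 987). KRT31 had 24 counts over the papillae and 0 over the organoids. A floor of 3 counts over the group would make it 12.2-fold lower, for counting error only. Low counts spread more than that, with median ratios of variance to mean of 3.2 in papillae and 4.62 in organoids, so this is not a firm bound.

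Of the unclassed genes, KRT80, a type II keratin found near desmosomes, had 383, 429, 340.3, 263 and 259 CPM in papillae and 208, 146, 201, 58.5 and 79.5 CPM in organoids (log2 change -1.27, SE 0.34, edgeR adjusted p = 0.0058). KRT222 was lower as well, from 3.24 ± 1.62 to 0.527 ± 0.295 CPM (log2 change -2.59, SE 0.50, edgeR adjusted p = 0.000703). With 277 counts over the papillae and 72 over the organoids it passed the filter through the papillae. Being tested and being lower were therefore bound together for this gene. KRT23, a type I keratin, had 469 ± 125 CPM in papillae and 451 ± 231 CPM in organoids and was not called (log2 change -0.06, SE 0.33, edgeR adjusted p = 0.886). With epithelial scaling KRT23 was called lower (log2 change -1.49, adjusted p = 0.000691).

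Other cell types moved with this comparison. Summed levels of 3 gland markers ran from 46853 to 245958 CPM in papillae and from 1.08 to 1.67 CPM in organoids. The 4 muscle markers ran from 181 to 5915 CPM and from 0.0439 to 0.244 CPM, the 3 fibroblast markers from 821 to 2768 CPM and from 0.0819 to 1.02 CPM, and the 3 endothelial markers from 277 to 452 CPM and from 1.87 to 3.30 CPM. The 3 immune markers ran from 18.4 to 28.8 CPM and were at 0 in all 5 organoid libraries, as were MYH2 and DES. Every marker in these 5 lists was called lower in organoids, against 35.1% of the 16311 genes tested. Those at or near 0 in organoids passed the filter through the papillae. Being tested and being lower were bound together for them, so their calls are no support. The 12 general epithelial genes summed to 1871 to 2491 CPM in papillae and 4355 to 6586 CPM in organoids. Of these 12, 7 were called higher and 1 lower, against 32.4% and 35.1% of all genes tested. Of 5 markers of mature taste cells 3 were called lower, their sum running from 42.5 to 173 CPM in papillae and 7.01 to 19.5 CPM in organoids. The 3 stem cell markers summed to 69.8 to 96.5 CPM in papillae and 277 to 501 CPM in organoids. SOX2 and LGR6 were present in each passage 1 organoid library. SOX2 was called higher there (log2 change 2.12, edgeR adjusted p = 3.23e-05) and LGR6 was not called (log2 change 1.70, edgeR adjusted p = 0.0510). LGR5, at 1.28 CPM in papillae, had counts in the organoids of 1 pig and was called lower. It passed the filter through the papillae, so this call is no support. The part of other cell types in the keratin changes was not tested. Papillae were also extracted with another kit and without a DNase step, which cannot be told apart from the contrast.

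Removing FGF10, an epithelial growth factor that signals through FGFR2, addressed what this factor does in the LPM cultures. Of 15 keratins tested 4 were called, 1 higher and 3 lower, against 1.78% of the 14262 genes tested (0.582% higher, 1.2% lower). The median log2 change, without over with FGF10, was -0.06 over the 15 keratins and 0.00 over all genes.

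KRT4 fell most. It had 370.4, 444 and 416 CPM in LPM and 226, 206 and 279 CPM without FGF10 (log2 change -0.79, SE 0.07, edgeR adjusted p = 1.52e-07), a 1.73-fold difference with no overlap. KRT23 had 156, 165 and 169.9 CPM in LPM and 123, 127 and 130.1 CPM without FGF10, again with no overlap (log2 change -0.37, SE 0.04, edgeR adjusted p = 4.82e-06). KRT15 had 924, 1019.5 and 1031 CPM in LPM and 856, 695 and 936 CPM without FGF10, and the third library without FGF10 lay above the lowest in LPM (log2 change -0.26, SE 0.07, edgeR adjusted p = 0.0398). The KRT15 call was lost in 8 of 13 alternatives, with adjusted p from 1.06e-09 to 0.675 over the 13. It was lost without LPM library 2 (adjusted p = 0.233) or 3 (0.109) and without library 1 (0.133) or 2 (0.128) of the group lacking FGF10. KRT20 was the only keratin called higher, with 303, 309 and 300.4 CPM in LPM and 405, 373 and 413 CPM without FGF10 (log2 change 0.38, SE 0.04, edgeR adjusted p = 1.36e-06). The calls of KRT4, KRT23 and KRT20 held in all 13 alternatives, with adjusted p no higher than 0.00033.

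The other named keratins did not pass the test. KRT5 had 4320.5 ± 62.9 CPM in LPM and 4056 ± 73.4 CPM without FGF10 (log2 change -0.09, SE 0.04, edgeR adjusted p = 0.305). KRT19 had 3125 ± 90.4 and 2956 ± 84.7 CPM (log2 change -0.08, SE 0.04, edgeR adjusted p = 0.425), and KRT8 1772 ± 17.9 and 1794 ± 16.7 CPM (log2 change 0.02, SE 0.04, edgeR adjusted p = 0.919). KRT6A had 2480.1 ± 21.9 and 2419.6 ± 29.3 CPM, KRT18 236 ± 3.46 and 229 ± 5.03 CPM, KRT80 202 ± 2.82 and 201 ± 10.1 CPM and KRT10 15.4 ± 1.02 and 14.7 ± 0.512 CPM (SD, n = 3 each). KRT7 had 1527, 1551 and 1566 CPM in LPM and 1385, 1389.5 and 1476 CPM without FGF10, with no overlap, and missed the threshold (log2 change -0.13, SE 0.04, edgeR adjusted p = 0.0913), though it passed in 4 of 13 alternatives, among them without library 3 of the group lacking FGF10 (adjusted p = 0.0471). KRT5, KRT6A and KRT7 were among the 6 of 15 keratins whose groups did not overlap, against 16.6% of all genes tested. The most abundant hair keratin per kilobase was KRT26 at 0.780 ± 0.206 and 0.723 ± 0.0606 CPM. The muscle, fibroblast, endothelial, immune and gland lists each stayed at or below 3.35 CPM in sum in both groups, and the sum of the taste cell list ran from 15.7 to 16.9 CPM in LPM and from 17.6 to 18.6 CPM without FGF10.

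The CQ experiment asked what finishing the cultures in CQ does. Of 13 keratins tested 9 were called, 4 higher and 5 lower, against 47.9% of the 13827 genes tested (23.1% higher, 24.8% lower). Groups did not overlap for 9 of the 13, against 61.1% of all genes. The median log2 change, CQ over LPM, was -0.35 over the 13 keratins and -0.07 over all genes, and scaling to the 12 epithelial genes moved the latter to 0.55.

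Simple keratins split. KRT20 fell 84.6-fold, from 523, 485 and 501 CPM in LPM to 8.33, 6.71 and 2.84 CPM in CQ (log2 change -6.40, SE 0.32, edgeR adjusted p = 1.06e-06). KRT18 fell as well, from 147, 162 and 190.1 CPM to 34.3, 40.6 and 34.1 CPM (log2 change -2.19, SE 0.14, edgeR adjusted p = 4.17e-06). Its partner KRT8 rose, from 1216, 1212 and 1537 CPM to 2162, 2159.6 and 2055 CPM (log2 change 0.69, SE 0.11, edgeR adjusted p = 0.000858), and so did KRT7, from 207, 217 and 278 CPM to 451, 377 and 434 CPM (log2 change 0.85, SE 0.13, edgeR adjusted p = 0.000886). KRT19 was not called, with 1533, 1596 and 2034 CPM in LPM and 2059, 1753 and 1781 CPM in CQ (log2 change 0.12, SE 0.12, edgeR adjusted p = 0.477). It was called higher with epithelial scaling (adjusted p = 0.000516) and without LPM library 3 (adjusted p = 0.04), the highest of the 3.

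The largest rise was that of KRT80, from 20.1, 21.2 and 19.9 CPM in LPM to 229, 215 and 219 CPM in CQ (log2 change 3.44, SE 0.11, edgeR adjusted p = 1.32e-07), or 10.8-fold. KRT6A rose 3.22-fold, from 1007, 1023 and 1166 CPM to 3502, 3456 and 3321 CPM (log2 change 1.69, SE 0.09, edgeR adjusted p = 1.55e-06). KRT4 fell 8.35-fold, from 62.4, 67.3 and 75.6 CPM to 10.4, 7.07 and 7.13 CPM (log2 change -3.06, SE 0.19, edgeR adjusted p = 3.77e-06). None of these 3 genes overlapped between the groups.

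Of the 2 basal keratins KRT15 was called. It fell, from 153, 139 and 214 CPM to 71.1, 63.4 and 58.9 CPM (log2 change -1.39, SE 0.17, edgeR adjusted p = 0.000209). KRT5 was not called, with 1808, 1795 and 2124 CPM in LPM and 2384, 2117 and 2091 CPM in CQ (log2 change 0.20, SE 0.10, edgeR adjusted p = 0.124), and was called higher in 3 of 14 alternatives, namely library size alone, epithelial scaling and without LPM library 3. KRT23 fell, from 30.9, 26.6 and 29.2 CPM to 17.7, 13.5 and 17.7 CPM (log2 change -0.83, SE 0.17, edgeR adjusted p = 0.00377), a call lost with epithelial scaling (adjusted p = 0.396). KRT10 had 19.2, 20.9 and 30.6 CPM in LPM and 15.7, 22.4 and 17.4 CPM in CQ and was not called (log2 change -0.35, SE 0.23, edgeR adjusted p = 0.238).

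**Figure D3:**
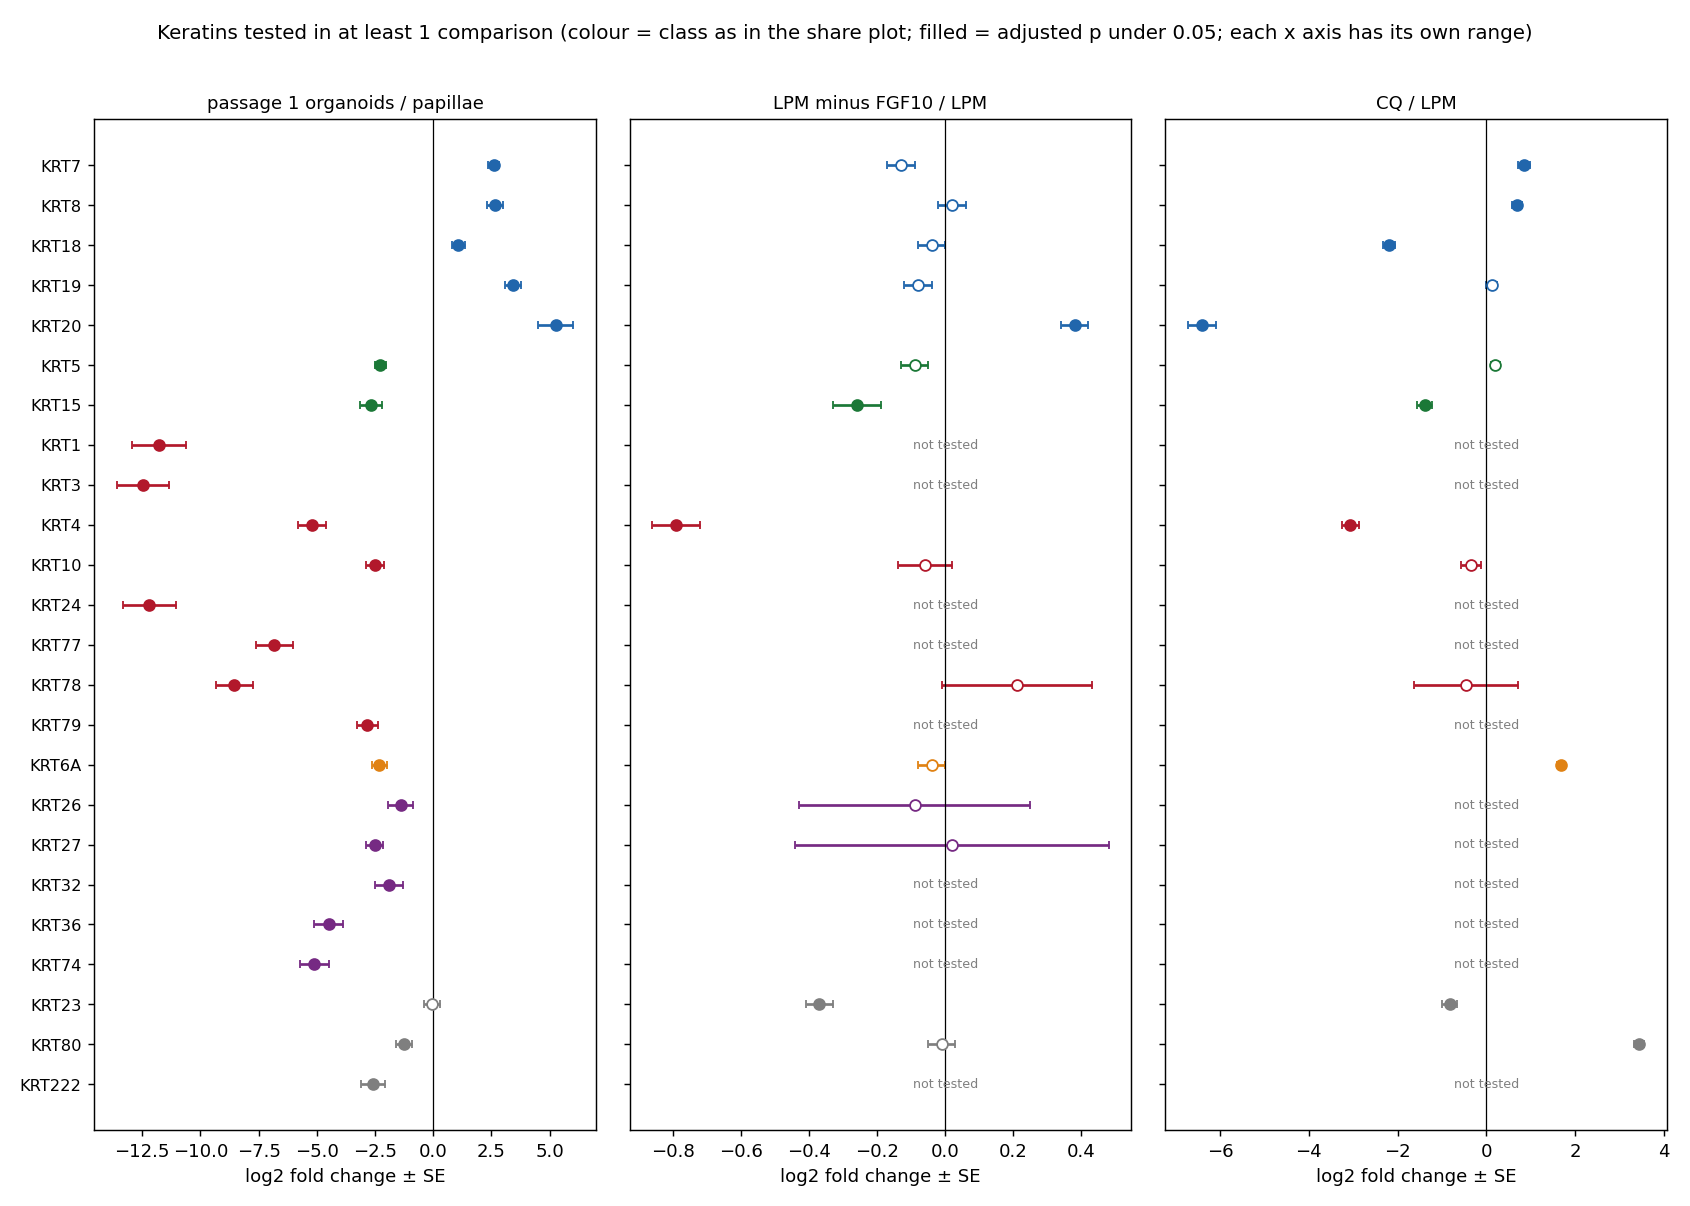
Points give the log2 fold change with its standard error (x axis, a separate range in each panel) of each keratin tested in at least 1 comparison (y axis), coloured by class and filled where the edgeR adjusted p was under 0.05. In the organoid panel the 5 simple keratins lie to the right of 0 and all other called keratins to the left; in the CQ panel KRT80 lies at 3.44 and KRT20 at -6.40.

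The remaining 23 keratins did not pass the filter in the CQ comparison. Of these 11 had 0 counts in all 3 CQ libraries, and 9 had counts in 1 CQ library only. For 5 of these 9 that library held 8 or more counts: KRT74 had 12, KRT36 had 8 and KRT32 had 12, all in CQ library 1, whereas KRT40 had 18 and KRT12 had 19, both in CQ library 3. In LPM 16 of the 23 had counts in 2 or 3 libraries. KRT222 had 21 counts over the LPM libraries and 0 over the CQ libraries. A floor of 3 counts over the group would make it 5.10-fold lower, for counting error only. Low counts in CQ spread more than that, with a median ratio of variance to mean of 12.19, so this is not a firm bound. With all 6 libraries thinned to 1.257 to 1.259 M counts, the CQ depth divided by its ratio of variance to mean and a setting chosen after the data were seen, 9 keratins were again called. Summed taste cell markers ran from 7.74 to 8.79 CPM in LPM and from 3.29 to 6.72 CPM in CQ, where GNAT3 was at 0. The 12 epithelial genes summed to 4110 to 4382 CPM in LPM and 2593 to 2900 CPM in CQ. Of these 12, 1 was called higher and 5 lower, against 23.1% and 24.8% of all genes tested. The part of this drop in epithelial genes in the keratin values was not tested. The 3 stem cell markers summed to 191.2 to 219.5 CPM in LPM and to 59.7 to 73.8 CPM in CQ. Muscle, fibroblast and immune cell lists each stayed at or below 1.07 CPM in both groups, and the 3 endothelial markers went from 5.63 to 6.27 CPM in LPM to 0.940 to 1.52 CPM in CQ. The 3 gland markers summed to 1.17 to 1.52 CPM in LPM and were at 0 in CQ.

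The balance between filament partners followed these changes. Per kilobase, KRT8 stood at 1.64 to 1.98 times KRT18 in papillae (median 1.82) and at 4.19 to 7.08 times in passage 1 organoids (median 5.26). In LPM and without FGF10 the medians were 6.29 and 6.58, and in LPM of the CQ experiment 6.80. In CQ the ratio was 44.7 to 53.0 (median 50.6). Every CQ library was thus above every other library. In absolute terms KRT18 had 25.8 ± 2.73 CPM per kb in CQ beside 1265 ± 38.2 for KRT8. Summed over all named members, type II stood above type I at a median ratio of 8.65 in papillae, 1.46 in passage 1 organoids, 1.59 and 1.56 in the FGF10 experiment, 1.32 in LPM and 2.68 in CQ. These ratios are descriptions of each library and were not tested.

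**Figure D4:**
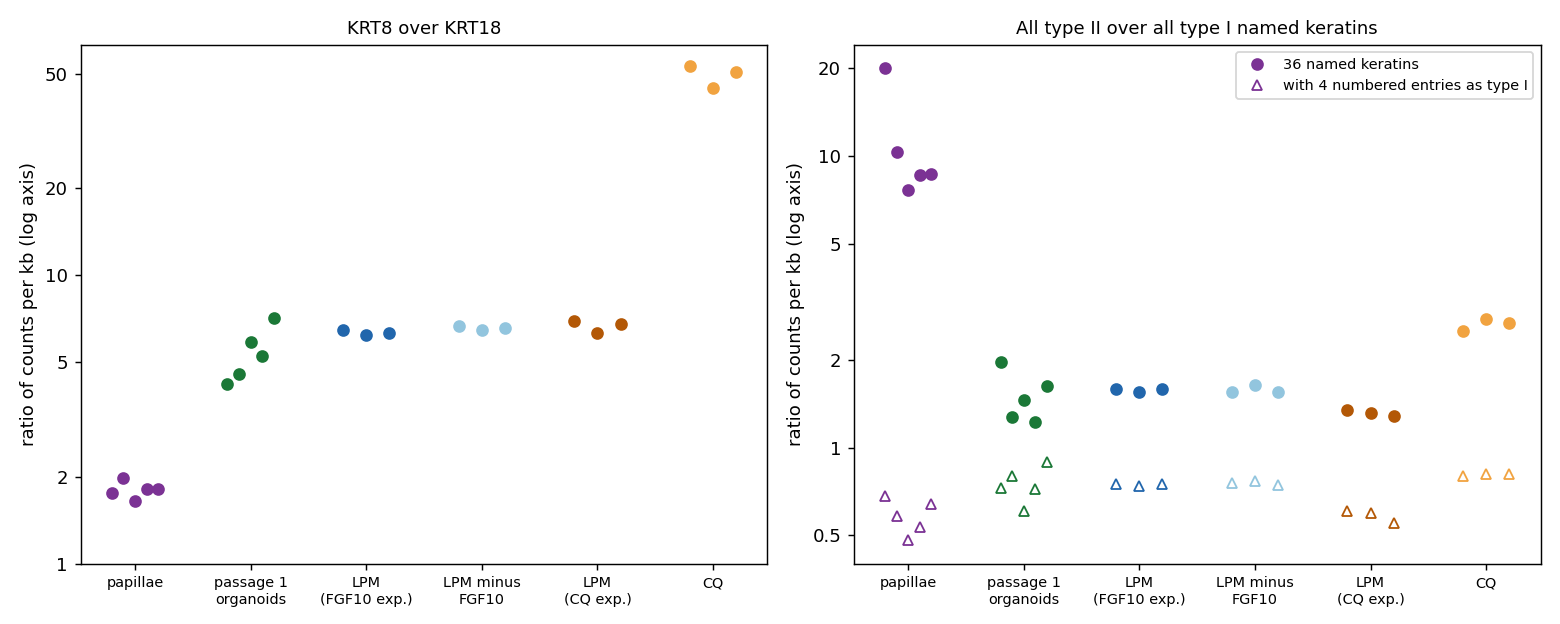
Points give, for each library in the 6 groups (x axis), the ratio of KRT8 to KRT18 counts per kilobase (left) and of all type II to all type I members (right), both on log y axes, with open triangles after adding 4 numbered chromosome 12 entries to type I. KRT8 over KRT18 reaches 44.7 to 53.0 in CQ, and the papilla type II excess (median 8.65) drops to a median of 0.581 once the numbered entries are added.

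The numbered entries of the type I stretch bear on that balance, although the files do not name them. Between KRT15 and KRT36 the entry LOC100515166 had 58005, 40370.0, 35178, 35665 and 34332 CPM in papillae and 379.7, 1520.2, 1183, 2329.8 and 1374 CPM in organoids (log2 change -4.91, SE 0.49, edgeR adjusted p = 6.35e-06). Without FGF10 it fell from 1836 ± 90.6 to 1276 ± 155 CPM (log2 change -0.52, SE 0.06, edgeR adjusted p = 3.01e-06). In CQ it was not called, at 775 ± 149 CPM in LPM and 888 ± 101 CPM in CQ (log2 change 0.20, SE 0.15, edgeR adjusted p = 0.301). Entry LOC100737113 rose in CQ, from 85.5, 82.3 and 115 CPM to 2481, 2665 and 2398 CPM (log2 change 4.74, SE 0.15, edgeR adjusted p = 1.59e-07), and was lower in organoids than in papillae, with overlapping libraries (log2 change -3.10, SE 0.87, edgeR adjusted p = 0.00809). Entries LOC110255312 and LOC110255272 fell in CQ, with log2 changes of -1.18 and -0.56. Counting these 4 entries as type I brought the median ratio of type II to type I to 0.581 in papillae, 0.729 in passage 1 organoids, 0.750 and 0.754 in the FGF10 experiment, 0.595 in LPM and 0.814 in CQ. The 4 entries were picked for their abundance, after the values were seen, and their position is all that places them with the keratins.

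Genes that anchor keratin filaments were taken as a list of 18 desmosome, plakin and filament-binding genes. In organoids against papillae 13 of 18 were called lower and 2 higher, against 35.1% and 32.4% of all genes tested, with a median log2 change of -0.90. DSG1, the desmoglein of differentiated layers, fell from 213 ± 24.2 to 0.574 ± 0.355 CPM (log2 change -8.55, SE 0.37, edgeR adjusted p = 2.37e-08), and the desmosomal plaque gene PKP1 from 1669 ± 251 to 81.4 ± 48.8 CPM (log2 change -4.36, SE 0.41, edgeR adjusted p = 3.92e-06). DSG1 had 73 counts over the organoids and passed the filter through the papillae, so its call is no support for the list. EVPL, the envoplakin of the cornified envelope, fell too (log2 change -2.85). The 2 that rose were PKP2, from 8.37 ± 3.70 to 93.0 ± 8.51 CPM (log2 change 3.48, SE 0.28, edgeR adjusted p = 1.37e-06), and DSG2, from 16.3 ± 4.31 to 132 ± 34.1 CPM (log2 change 3.02, SE 0.23, edgeR adjusted p = 1.03e-06), which are the forms known from simple epithelia and basal cells.

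Without FGF10, 2 of 17 tested anchoring genes were called, against 1.78% of all genes tested, both lower: PPL, periplakin, and EVPL, its partner, with log2 changes of -0.21 and -0.24 and a median over the 17 of 0.02. In CQ 12 of 17 were called higher, against 23.1% of all genes tested, and the other 5 were not called, with a median log2 change of 0.85. PKP1 rose from 31.7, 29.2 and 25.7 CPM to 370.4, 392 and 332 CPM (log2 change 3.66, SE 0.13, edgeR adjusted p = 2.06e-07). PKP3 rose with a log2 change of 1.45 and DSC3, a desmocollin of the lower layers, with 1.82. PKP1 was thus lower in organoids than in papillae and higher in CQ than in LPM, as was KRT6A. PKP2 had 51.1 ± 8.07 CPM in LPM and 39.2 ± 3.15 CPM in CQ and was not called (log2 change -0.38, SE 0.15, edgeR adjusted p = 0.0637).

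**Figure D5:**
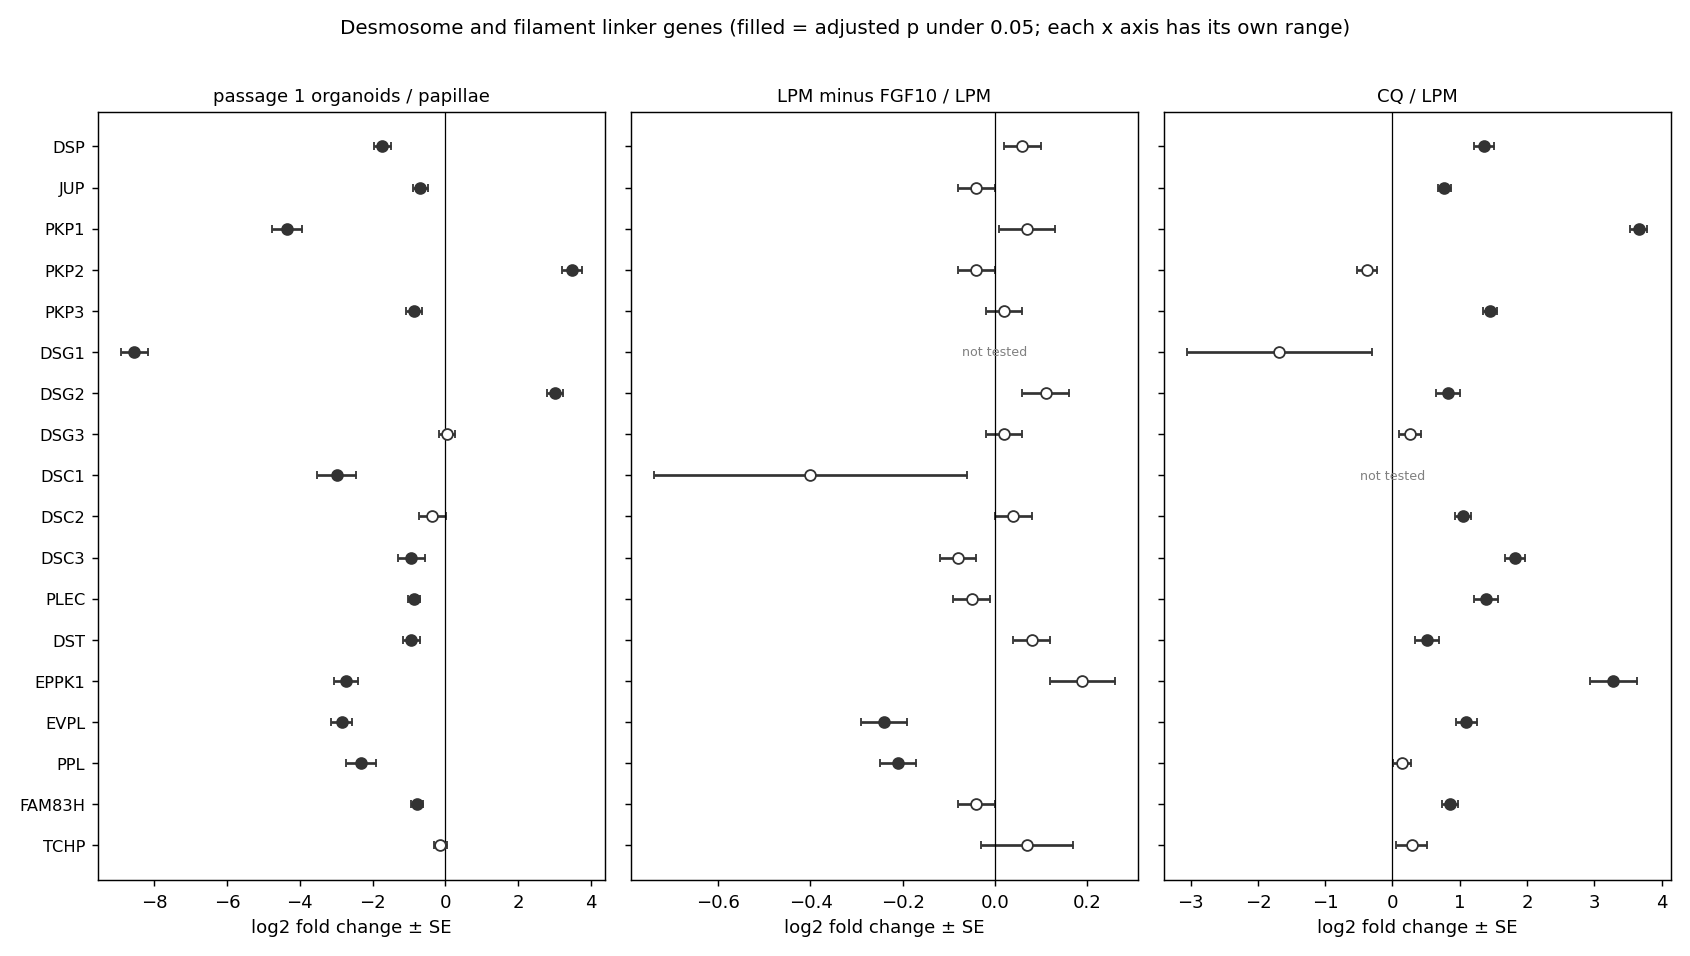
Points give the log2 fold change with its standard error (x axis, a separate range in each panel) of 18 anchoring genes (y axis), filled where the edgeR adjusted p was under 0.05. PKP2 and DSG2 are the only filled points to the right of 0 in the organoid panel, and 12 filled points lie to the right of 0 in the CQ panel.

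Keratin levels in LPM were not the same in the 2 media experiments. Per kilobase, KRT7 had 752 ± 8.17 CPM per kb in LPM of the FGF10 experiment and 122 ± 20.5 in LPM of the CQ experiment. KRT80 had 45.5 ± 0.454 and 4.93 ± 0.158, KRT15 522 ± 30.2 and 95.5 ± 22.9, and KRT4 182 ± 16.7 and 32.7 ± 3.22 CPM per kb. KRT20 went the other way, with 130.4 ± 2.31 and 232 ± 8.83 CPM per kb. The KRT80 level in CQ, 51.9 ± 1.46 CPM per kb, was close to that in LPM of the FGF10 experiment. These experiments differ in culture, counting version and annotation version, although all 36 keratins had the same gene model in both. The values therefore stand side by side without a test.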

How the data were processed

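Bulk messenger RNA was sequenced in 22 pig libraries. The authors deposited raw integer read-pair counts for every gene, not normalized, which per the file headers came from featureCounts 2.0.3 (16 libraries) and 2.0.6 (the 6 CQ experiment libraries), without regard to strand, with pairs overlapping several genes counted for each and multiply mapped pairs dropped. Per the submitters' processing notes FastQC 0.11.9, STAR 2.7.10b, MultiQC 1.14 and DESeq2 were also used. The gene length columns of the deposited files served for values per kilobase. An unnamed entry (0.326 to 0.477% of counts) of the 6 CQ experiment libraries was left out. All 36 members matched the RefSeq gene table (Sscrofa11.1).

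Each comparison was fitted on its 2 groups with edgeR 4.0.16 in R 4.3.3 (TMM, filterByExpr at a minimum count of 10, quasi-likelihood F test, Benjamini-Hochberg over all genes tested, called under 0.05), tested on simulated data. Alternatives used DESeq2 1.42.0, limma 3.58.1 voom, other scalings and filters, a replicate block and each library left out. Members, classes and lists were chosen with earlier results of these data known. Keratins were named where their average log2 CPM in a fit was 3 or more, with the most abundant member of each class and up to 3 called anchoring genes a direction; the taste and stem cell lists (TRPM5, PLCB2, GNAT3, PKD2L1, ENTPD2; LGR5, LGR6, SOX2) were added later. Passage 1 organoids and papillae share pigs, so pig numbers pair them by design (correlation of same-pig deviations 0.036 to 0.11). A further marker list is not reported here. Floors are 3 counts over a group, and intervals are exact at 95% and cover counting error only, since no molecular identifiers are named in the sources used here.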

Additional observations from a re-analysis of the deposited data

Results flagged for a closer look

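In the 5-library groups, 48 sets of keratin values were checked for a library far from the rest of its group, and 4 held one; chance alone gives about 1 in 20. The papilla of pig 4 had 311 CPM of KRT1, where the other 4 papillae had 16.4 to 74.2 CPM, and 213 CPM of KRT10, where the others had 46.3 to 69.2 CPM. These genes code for the filament partners of keratinizing epithelium. The papilla of pig 1 had 41319.7 CPM of KRT4, where the others had 18202.9 to 24207 CPM. The passage 1 organoids of pig 5 had 1.05 CPM of KRT222, where the others had 0.351 to 0.451 CPM. Without the papilla of pig 1, pig 4 or any other library in turn, KRT4 and KRT10 were still called lower in organoids. So was KRT1, but it had 3 counts over the organoids and passed the filter through the papillae. The repeated calls of KRT1 are therefore no support.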

How the results depend on the processing

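The numbers of keratins called stayed within 1.5 times those reported in every alternative run. With the replicate block the keratins called numbered 23, 4 and 9 in the organoid, FGF10 and CQ comparisons, and the pairing by pig changed no call of a named keratin; in the FGF10 and CQ experiments libraries shared only a number (correlations -0.046 to 0.047 and -0.008 to 0.021, and not every library matched its own number best), and with the block all genes called went from 11011 to 10679, from 254 to 234 and from 6625 to 6120, and anchoring genes called were 15, 2 and 12. Leaving out 1 library gave 22 to 26, 3 to 5 and 9 to 11 keratins. Over all genes the FGF10 comparison called 429 without a low-count filter, 582 with epithelial scaling and 125 to 294 without 1 library; its anchoring genes called were 5 with epithelial scaling and 1 to 2 without 1 library. The cause of these shifts was not tested.

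Log2 changes changed sign for KRT18 in organoids with epithelial scaling (-0.18) and otherwise for keratins that were not called. In organoids KRT23 gave 0.20 with library size alone, 0.01 without a filter and -0.36 to 0.14 over the fits without 1 library, where 5 were above 0 (0.02, 0.05, 0.05, 0.06 and 0.14). Without FGF10, KRT80 gave 0.01 with library size alone, 0.06 with epithelial scaling and -0.04 to 0.03 without 1 library (0.00 in one), and with epithelial scaling KRT6A and KRT18 each gave 0.03 and KRT10 0.01. In CQ, KRT10 gave 0.27 with epithelial scaling and 0.01 after thinning.

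Shares of plain counts, not divided by gene length, moved by more than 1 SD, as the division by length implies. In the order passage 1 organoids, LPM, without FGF10, LPM of the CQ experiment and CQ, simple keratins took 58.2, 44.9, 46.3, 54.5 and 42.8%. Basal keratins took 34.1, 33.3 and 28.7% in LPM, without FGF10 and in LPM of the CQ experiment, where suprabasal took 1.30% and hair 0.0206%. From papillae to CQ, KRT6A took 11.5, 9.98, 15.9, 16.5, 14.8 and 32.9%, and unclassed genes 1.83, 5.89, 2.35, 2.24, 0.692 and 2.28%. No member had another length in the second annotation, so shares without such members were not computed. Depth limits what can be said of most hair keratins and of the 23 untested in CQ.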
